A study of Rattus norvegicus with 6 samples.

Results

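The 200 brightest circRNA probes of the rat hippocampus were described on 6 circRNA arrays, 3 of the AD group and 3 of the Sham group. The members were chosen by their signal: in the log2 table that the authors deposited, which holds 12132 circRNA probes, the values of the 6 arrays were averaged for each probe and the 200 highest means were kept. They are 1.41% of the 14145 circRNA probes on the array. The mean over both groups is what chose them, so that their high signal is a description, and although the contrast of AD with Sham was not used, a probe bright in 1 group only could enter through that group. The rats were adult male Sprague Dawley animals. The AD group received oligomers of amyloid-β into the cerebral ventricles, the Sham group received vehicle by the same route, and no age in weeks is given in the labels or the methods. Such an injection models exposure to amyloid-β in an otherwise normal rat and not the slow course of the human disease. The labels number the samples but do not tie each one to a separate rat, so every p-value below measures the spread between these samples.

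Circular RNAs (circRNAs) are made when the splicing machinery joins the end of an exon back to the start of the same or an earlier exon. The closed loop has no free end for exonucleases to attack, and circRNAs are known to accumulate in neurons, where many come from genes of the synapse. Some bind microRNAs or proteins, while the function of most is unknown. The authors digested linear RNA with RNase R, copied what was left by random priming, and labelled it with the dye Cy3. The brightness of a probe therefore depends on the amount of its circRNA, on how that circle was copied and on how well the probe binds. A rank of brightness is a rank of probe signals and not a measured order of RNA amounts. Neither the scanner files nor the table names the circRNA, host gene or sequence behind a probe, so members are given by probe identifier, no sequence is printed, and the tissue could not be checked against marker genes. In tissue of mixed cells, fewer cells of a type and less RNA per cell cannot be told apart.

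The 200 probes were far brighter than the rest of the array in every sample. Their processed signal, which is the spot intensity after the scanner software had subtracted background, had a median of 7118 on AD 1, 6799 on AD 2 and 6187 on AD 3. For Sham 1, Sham 2 and Sham 3 the median was 4573, 5173 and 6236. On the same arrays the median of the other circRNA probes was between 26.2 and 46.6, so that the median member was 111 to 272 times as bright. All 200 were well above background on all 6 arrays, no member spot was saturated, and none was removed by an outlier flag. No member had to be left out of any fit. The limit of 200 did not fall at a gap: the mean log2 value in the deposited table was 11.61 at ASCRPR011528 and 11.60 at ASCRPR013709, the last inside, and 11.59 at both ASCRPR005593 and ASCRPR011115, the first outside.

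Although they are few, the 200 members held between 37.9% and 49.3% of all circRNA signal. Their share of the summed processed signal of all circRNA probes was 49.3% on AD 1, 42.8% on AD 2 and 46.6% on AD 3. For Sham 1, Sham 2 and Sham 3 it was 43.9%, 37.9% and 46.5%. The highest share was on an AD array and the lowest on a Sham array, but the groups overlapped, since Sham 1 and Sham 3 lay above AD 2. The AD mean was 46.2% ± 3.27 (SD, n = 3), the Sham mean was 42.8% ± 4.42 (SD, n = 3), and the difference of 3.44 percentage points was less than the pooled spread within groups, 3.89 points. Leaving out Sham 2 brought it to 1.0 points and leaving out AD 1 to 1.90, while it was 5.16 when AD 2 and 5.32 when Sham 3 was left out. The share depended little on having chosen the members on the same array. With the 200 chosen on the other 5 arrays, it was 48.4%, 42.1% and 46.1% in AD and 43.4%, 36.0% and 45.8% in Sham. Median spot signal minus local background gave lower shares, 33.8% to 44.9%, and still put AD 1 first and Sham 2 last.

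**Figure D1:**
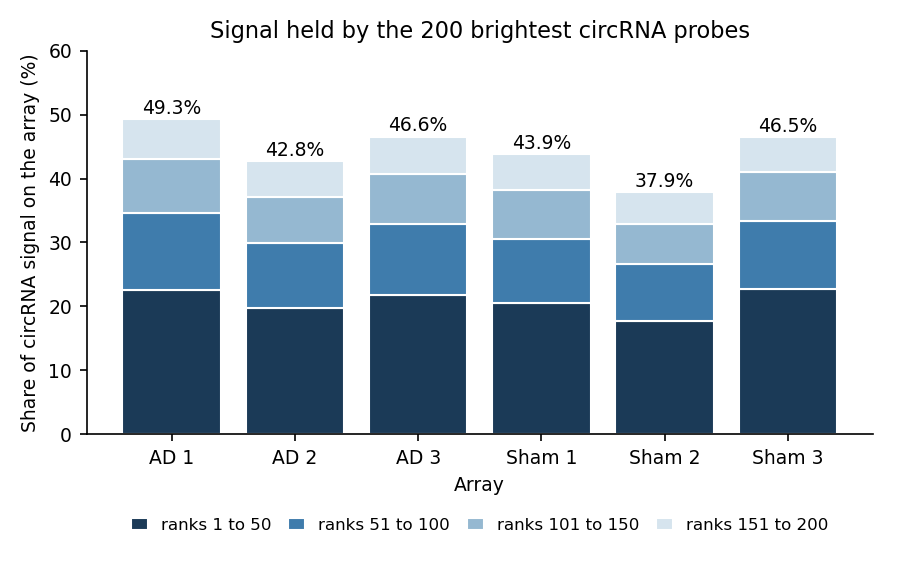
Share of the summed circRNA signal of each array (y axis, percent) held by the 200 members, with 1 bar per array (x axis) and the members parted by brightness rank in the deposited table. The bars reach 42.8% to 49.3% on the AD arrays and 37.9% to 46.5% on the Sham arrays, and the 50 brightest probes give 17.7% to 22.7% of the signal.

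Within the 200 the signal was not held by a handful of probes. The brightest probe, ASCRPR013743, ranked first on all 6 arrays and held 1.89% to 2.99% of the circRNA signal. The 10 brightest held 6.90% to 8.58% and the 50 brightest 17.7% to 22.7%. Members ranked 151 to 200 still held 5.08% to 6.23%. On each array, counted from its own brightest probe downward, 50% of the circRNA signal was reached after 189 probes on AD 1, 249 on AD 2 and 216 on AD 3. It took 254 probes on Sham 1, 331 on Sham 2 and 228 on Sham 3. Sham 2 thus spread its signal over the most probes and AD 1 over the fewest, while the other 4 arrays lay between with the groups mixed.

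The 5 brightest members kept their places closely. ASCRPR003948 ranked 4, 2 and 2 in AD and 2, 3 and 3 in Sham. ASCRPR011276 ranked 2, 6 and 4 in AD and 8, 2 and 2 in Sham. ASCRPR006556 lay between ranks 3 and 8 on all 6 arrays. ASCRPR005480 ranked 9 on each AD array and 4, 17 and 6 in Sham. None of the 5 passed limma's test between the groups, with log2 differences (AD minus Sham) of -0.08 to 0.30 and adjusted p of 0.621 to 0.990. The level of ASCRPR013743, as log2 above the 75th percentile of its array, was 9.59, 9.78 and 9.92 in AD and 9.90, 9.04 and 9.68 in Sham. That of ASCRPR003948 was 8.18, 8.28 and 8.26 in AD and 8.57, 8.02 and 8.37 in Sham. For both probes the AD values lay inside the range of the Sham values or overlapped it.

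Further down the order the ranks moved more. Of the 200 members, 87 were among the 200 brightest circRNA probes on every array, 138 were among the 300 brightest and 170 among the 400 brightest. A further 38 were in the top 200 on 5 arrays, 45 on 4, 21 on 3, 7 on 2 and 2 on 1 array. The range of a member's 6 ranks had a median of 50.5 places over the 50 brightest members and of 262.5 places over the last 50. In each array 146 to 171 members were among its own top 200, the fewest on Sham 2 and the most on Sham 3. Altogether 320 probes entered the top 200 of at least 1 array.

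**Figure D2:**
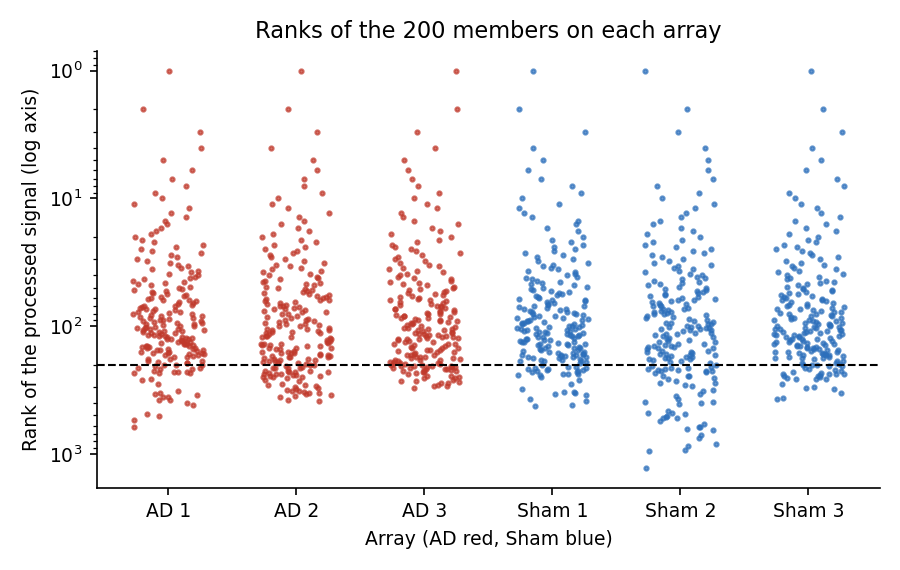
Rank of the processed signal among all circRNA probes (y axis, log scale, brightest at the top) of the 200 members on each array, with 1 point per member, AD in red and Sham in blue, and a dashed line at rank 200. The deepest point is at 1289 on Sham 2, against 303 to 612 on the AD arrays.

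A choice made without an array gives a check on that array that the rule did not use. When the 200 brightest were chosen on 5 arrays and looked up on the sixth, 162 were in its top 200 for AD 1, 149 for AD 2 and 159 for AD 3. The counts were 163 for Sham 1, 133 for Sham 2 and 163 for Sham 3. In percent this is 66.5% for Sham 2 and 74.5% to 81.5% for the other 5 arrays. The 200 brightest by the mean of the AD arrays and the 200 brightest by the mean of the Sham arrays shared 138 probes, which is 69% of each list.

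Sham 2 was the array on which members fell furthest. For 39 members the 6 ranks spanned more than 300 places, and 26 of these had their lowest rank on Sham 2. ASCRPR010768 had the widest span. It ranked 127, 72 and 84 on the AD arrays, 167 on Sham 1, 313 on Sham 3 and 1289 on Sham 2. ASCRPR005498 ranked 123, 68 and 79 on the AD arrays, 121 on Sham 1, 304 on Sham 3 and 955 on Sham 2. In both probes the rank on Sham 1 was near those in AD, and Sham 2 and Sham 3 ranked lower. Sham 3 carried a scan identifier of its own among these arrays, which is read here as a separate slide. Its local background was 28 (median over spots), where the remaining arrays had 16 to 17. How the slide bears on the ranks was not tested.

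Over the 200 members, the order of brightness was shared between the AD arrays and between Sham 2 and Sham 3. It was shared less between Sham 1 and either of these Sham arrays. Spearman's rho of the ranks, over n = 200 members, was 0.767 to 0.931 between AD arrays. It was 0.813 between Sham 2 and Sham 3, 0.583 between Sham 1 and Sham 3, and 0.167 between Sham 1 and Sham 2. Between the groups it ran from 0.0358, for AD 2 with Sham 2, to 0.741, for AD 2 with Sham 1. These values describe arrays that share their probes, and a set kept for high signal has a narrow range, which lowers a correlation. Sham 1 had a rho of 0.601 to 0.741 with the AD arrays, above its value with either Sham array. The spread within groups was wider in Sham: the median SD of a member's log2 level was 0.34 over the 3 AD arrays and 0.73 over the 3 Sham arrays. Over the 11380 other tested probes it was 0.29 and 0.33.

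The comparison of AD with Sham asked whether circRNA signal differed in the hippocampus after amyloid-β. Levels are log2 processed signals minus the 75th percentile of the array. The fit of limma covered the 11580 circRNA probes whose signal the scanner software marked as well above background in 3 or more arrays, and the 200 members were read from it. A probe is called here when it met the study's threshold, a fold change of at least 2 and an unadjusted p under 0.05. Among the members 52 of 200, or 26.0%, were called higher in AD, against 8.85% of all tested probes and 8.55% of the 11380 remaining ones. Only 4 members, or 2% of them, were called lower, against 2.89% of all tested probes. Part of the higher calls came with the choice itself. In the deposited table, 23 members had an AD mean at or above the lowest member mean, 11.60, and a Sham mean below it, and 22 of these 23 were called higher. Another 22 members reached it by their Sham mean only, of which 0 were called higher and 2 lower. Among the 155 members with both group means at or above it, a set chosen after seeing the data, 30 or 19.4% were called higher and 2 or 1.29% lower. These shares describe the members and carry no test over the list.

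Calls on the higher side came from the whole brightness range of the 200. Of the members ranked 1 to 100, 26 were called higher, and of those ranked 101 to 200 another 26. In groups of 50 from the brightest on, 8, 18, 12 and 14 were called higher, so that the brightest 50 had the fewest. Just below the members, 21.5% of the probes ranked 201 to 400 were called higher, then 17.5% of those ranked 401 to 800 and 12.5% of those ranked 801 to 1600. Among the dimmest tested probes, ranked 6401 and beyond, it was 5.98%. The frequency of higher calls thus fell in steps below the members, with no break at the limit of 200.

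The differences of the members had a long upper side. The median log2 difference was 0.27, the lower quartile -0.13 and the upper quartile 1.17, and the extremes were -1.16 and 2.54. Of the 200, 56 or 28% reached 2-fold higher in AD and 6 or 3% reached 2-fold lower, whatever their p. Another 97 lay within 0.5 of 0. Of the 11380 remaining probes, 9.12% reached 2-fold higher, 3.44% reached 2-fold lower and 6979 lay within 0.5 of 0. The 11380 remaining probes had a median of -0.00198, quartiles of -0.37 and 0.39, and extremes of -3.72 and 5.45. The largest changes on the array were therefore outside the members. The members' median rested in part on single arrays: it was 0.15 without AD 1, 0.48 without AD 2 and 0.42 without Sham 3, and 0.10 with no scaling, where the median of all probes was -0.17.

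**Figure D3:**
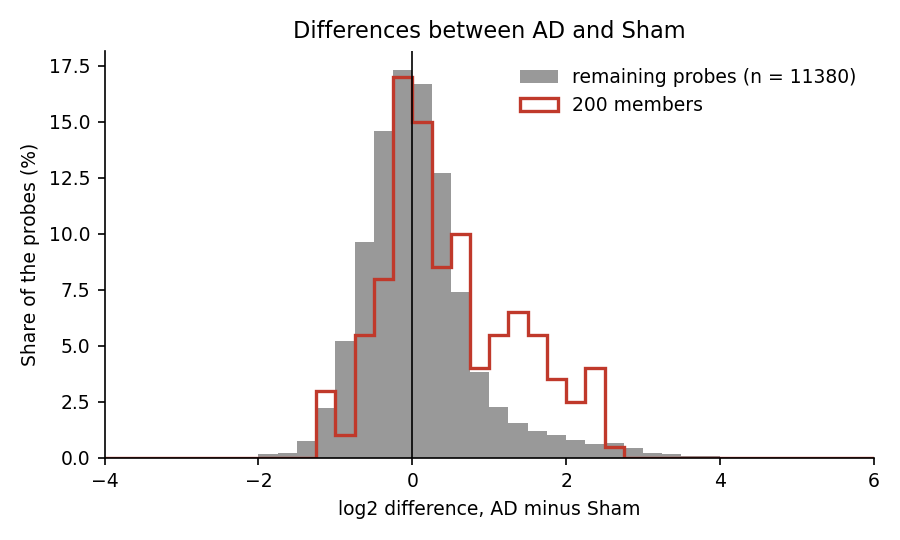
Distribution of the log2 difference, AD minus Sham (x axis), as the share of probes per interval of 0.25 (y axis, percent), for the 200 members (red line) and the 11380 remaining tested probes (grey). Both sets peak near 0, and the members have a second group between 1 and 2.5 that the remaining probes lack at that height.

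The sign of the members' median depended on the scaling. Higher calls outnumbered lower ones under every scaling tried, by a smaller margin under some. With quantile normalization, which gives all arrays the same distribution of signals, the median log2 difference of the members was -0.15, and with the deposited log2 table, whose columns have medians of 6.18 to 6.21 and 1 common highest value, it was -0.14. The median of all tested probes was then -0.07 and -0.06. Under these settings 29 members were called higher and 17 lower, and 31 higher and 11 lower, against 52 and 4. So 63.0% and 73.8% of the called members were on the higher side, in place of 92.9%. All 29 and all 31 were among the 52. The background of higher calls was 7.74% and 5.07% of all tested probes, and the members' share was 14.5% and 15.5%. The background of lower calls was 4.34% and 1.65%, and the members' share was 8.50% and 5.50%, so that both directions were then above the background.

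**Figure D4:**
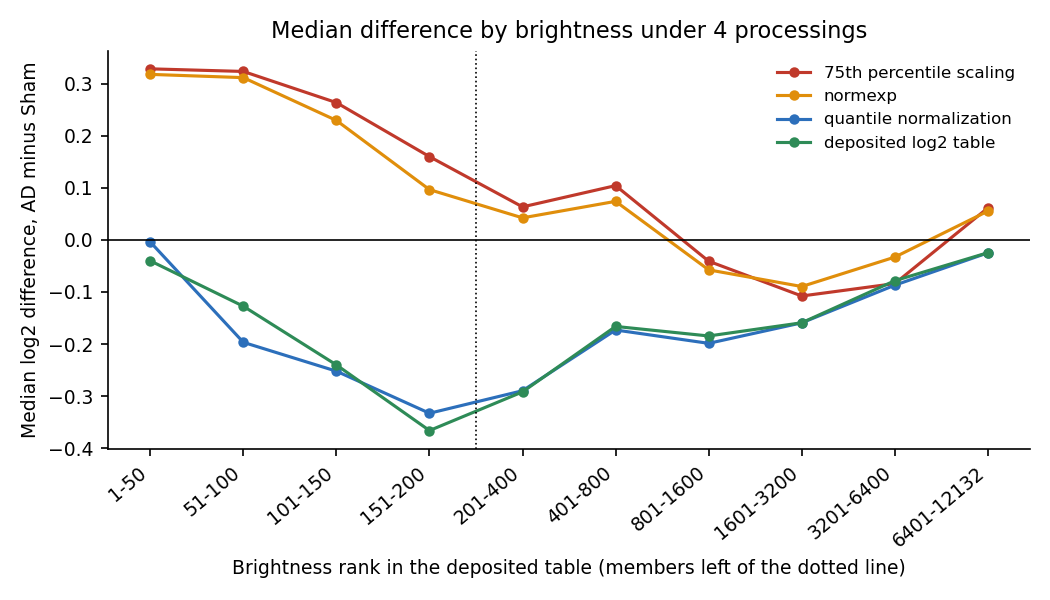
Median log2 difference, AD minus Sham (y axis), of probes grouped by brightness rank in the deposited table (x axis, members left of the dotted line), with 1 line per processing. With 75th percentile scaling the 4 groups of members lie at 0.16 to 0.33, and with quantile normalization at -0.33 to -0.00406.

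The 52 members called higher had a like order over the arrays, but not a like spread over the Sham arrays. Their median level was 6.73 on AD 1, 6.47 on AD 2 and 6.58 on AD 3, and 5.85 on Sham 1, 3.67 on Sham 2 and 5.12 on Sham 3. The median SD of a probe over the 3 arrays was 0.14 in AD and 1.14 in Sham. Over the Sham arrays it was 0.23 for ASCRPR004523 and 1.76 for ASCRPR010768. All 52 were lowest on Sham 2, and 50 of them were highest, among the Sham arrays, on Sham 1. Of all 200 members, 70 had their lowest rank on Sham 2. In 51 of the 52 every AD array lay above every Sham array, which held in 34.5% of all members and 15.3% of all tested probes. Since the 52 were picked for this contrast, the levels are a description. The 52 probes held 14.6%, 15.0% and 15.1% of the circRNA signal on the AD arrays, and 10.5%, 3.42% and 6.47% on Sham 1, Sham 2 and Sham 3. The other 148 members held 27.8% to 34.7% in AD and 33.4% to 40.1% in Sham.

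The count rested in part on single arrays. Without Sham 2 the threshold was met by 28 members on the higher side and 5 on the lower, and without AD 1 by 33 and 0. Without Sham 1, 62 were called higher and 1 lower. Without Sham 3, which leaves the 5 arrays with a common scan identifier, it was 45 and 1. The background of higher calls was 7.32% without Sham 2, 7.24% without AD 1, 11.6% without Sham 1 and 7.56% without Sham 3, and the members' share, 14.0% to 31.0%, was above it in each case. In the same order, the background of lower calls was 2.02%, 2.49%, 5.94% and 1.96%. The members' share of lower calls was 2.5%, 0%, 0.5% and 0.5%. The methods' t-test on the same values called 15 members higher and 0 lower, where the background was 6.19% and the 15 of 200 are close to it. In the file headers the AD arrays and the Sham arrays have different first numbers of their place on the slide, so place and group cannot be told apart.

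Counted without any threshold on size, every AD array lay above every Sham array in 69 members, or 34.5%, against 15.3% of all tested probes. The reverse held for 9 members, or 4.50%, against 14.9% of all tested probes. These counts, too, include the 23 members that reached the limit through AD and the 22 that reached it through Sham.

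At an adjusted p under 0.05 over the 11580 probes, 4 members passed, which is 2% against 2.18% of all tested probes, so the members were not richer in such calls than the array. All 4 were higher in AD and are named because they are so few, after their values were seen. ASCRPR000110 had a level of 7.57, 7.83 and 7.74 in AD and 5.99, 5.54 and 5.98 in Sham. Its log2 difference was 1.87 (adjusted p = 0.0380 from limma, standard error 0.23), or 3.67-fold, and it ranked 16, 4 and 8 in AD against 86, 72 and 90 in Sham. Its SD over the Sham arrays was 0.25, less than the median of the 52 given above.

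ASCRPR012011, the ninth brightest member, had a level of 8.04, 7.97 and 8.22 in AD and 6.71, 6.21 and 6.83 in Sham, a log2 difference of 1.5 (adjusted p = 0.0466 from limma). ASCRPR004523 was at 5.81, 5.70 and 5.80 in AD and 4.67, 4.22 and 4.52 in Sham, a log2 difference of 1.30 (adjusted p = 0.0466 from limma). Their SDs over the Sham arrays were 0.33 and 0.23. ASCRPR012658 was at 7.04, 7.29 and 7.33 in AD and at 5.86, 4.37 and 5.18 in Sham, a log2 difference of 2.09 (adjusted p = 0.0475 from limma), and its Sham SD was 0.75. None of the 4 passed an adjusted p under 0.05 when any array but Sham 1 was left out. All 4 passed without Sham 1, where 55 members passed, all of them higher. The share of all tested probes past the adjustment in that fit was not counted, so the 55 cannot be set against a background. At the study's threshold with limma's p, 11.6% of all tested probes were called higher there and 5.94% lower. With all arrays it was 8.85% and 2.89%. Over all settings the log2 differences were 1.36 to 1.95 for ASCRPR000110, 1.17 to 1.62 for ASCRPR012011, 0.83 to 1.40 for ASCRPR004523 and 1.62 to 2.45 for ASCRPR012658, while the adjusted p of each reached 0.217.

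The 2 largest differences among the members were not among these 4. ASCRPR010768, named above for its ranks, had a level of 6.15, 6.30 and 6.26 in AD and 5.18, 1.75 and 4.17 in Sham. Its log2 difference was 2.54 (standard error 0.77, unadjusted p = 0.0121, adjusted p = 0.110 from limma). ASCRPR007196 had a level of 6.73, 6.51 and 6.52 in AD and 5.75, 2.31 and 4.24 in Sham, a log2 difference of 2.48 (adjusted p = 0.110 from limma). The SD was 0.08 and 0.12 over the AD arrays and 1.76 and 1.72 over the Sham arrays. Without Sham 2 the differences were 1.56 and 1.59, and in the deposited log2 values 2.11 and 2.06, so that for each probe the direction held in both settings.

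The 4 members called lower had the reverse pattern, with the Sham arrays close together and AD 1 apart. ASCRPR009754 had a level of 6.23, 6.43 and 6.45 on the Sham arrays and 4.09, 6.0 and 5.53 on the AD arrays. Its log2 difference was -1.16 (standard error 0.47, unadjusted p = 0.0397, adjusted p = 0.192 from limma). ASCRPR009090 was at 6.11, 6.48 and 6.41 in Sham and at 4.20, 6.02 and 5.53 in AD, a log2 difference of -1.08 (adjusted p = 0.205 from limma). The other two, ASCRPR011698 and ASCRPR002991, had log2 differences of -1.02 and -1.06 and were also lowest on AD 1, at 3.35 and 3.57. None of the 4 passed the adjustment. Without AD 1 no member was called lower, and the log2 differences were -0.60 for ASCRPR009754, -0.56 for ASCRPR009090, -0.52 for ASCRPR011698 and -0.68 for ASCRPR002991.

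**Figure D5:**
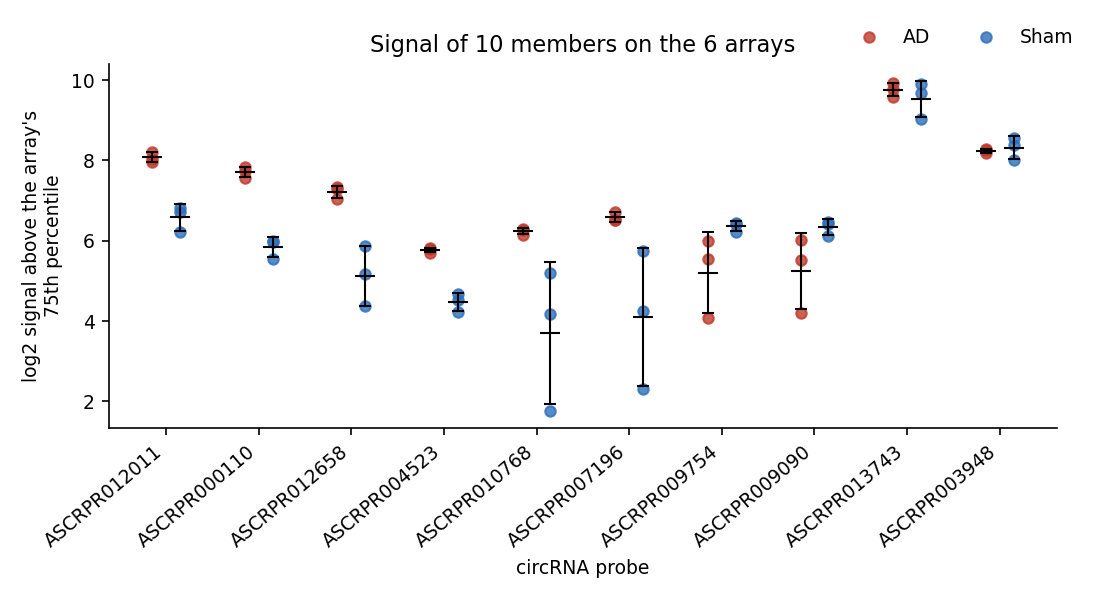
Log2 signal above the array's 75th percentile (y axis) of 10 members (x axis), with a point per array (AD red, Sham blue) and black bars for the mean ± SD of 3 arrays. From the left come the 4 members past the adjusted p, the 2 largest increases and the 2 largest decreases, whose groups do not overlap, and then the 2 brightest members, whose groups do.

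Members with consecutive probe identifiers often had like log2 differences, which the rule did not use. The rule did use signal, so both probes of a pair passed the same brightness limit and like levels come partly from it. There were 10 such pairs, made up of 16 members, and pairs within a run share probes. The longest runs were ASCRPR006666 to ASCRPR006670 and ASCRPR006554 to ASCRPR006556. In the first run the 5 log2 differences lay between -0.13 and 0.04, and each of the 5 probes was highest on Sham 3 of the 3 Sham arrays and lowest on Sham 2. In the second run they were 0.41, 0.15 and 0.19. ASCRPR000231 and ASCRPR000232 had log2 differences of 1.80 and 1.82, with levels of 5.11 and 5.19 on Sham 1, 3.19 and 3.21 on Sham 2, and 4.61 and 4.57 on Sham 3. The size of the difference between the 2 probes of a pair had a median of 0.03 over the 10 pairs and was under 0.1 in 6. Its highest value was 0.85 at ASCRPR009743 and ASCRPR009744. It had a median of 0.81 over all 19900 pairs of members, and of 0.57 over the 9538 consecutive pairs among all tested probes, whose log2 differences had a Pearson correlation of 0.0479. Nothing in the files says whether consecutive identifiers stand for circles of 1 gene or for overlapping sequence, so paired members may not be separate observations. On the array surface, 113 members, or 56.5%, had their spot in the upper part of the 192 rows, against 49.9% of all circRNA probes.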

How the data were processed

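Hippocampal RNA of 3 AD and 3 Sham samples was digested with RNase R, labelled with Cy3 and hybridised to the Arraystar rat circRNA array, 1 sample per array. The authors scanned the arrays and extracted intensity values with Agilent Feature Extraction 11.0.1.1, per the file headers. The processed signal is an intensity from which the software had subtracted background. They also deposited log2 values for 12132 probes, whose columns have the same highest value and medians of 6.18 to 6.21. No source read here states the normalization behind them, and limma is named in the submitters' processing notes without a role.

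The members were the 200 highest means in the deposited log2 table, with ties by identifier. The choice of members, the tests and the rule for named probes were made with earlier results of these data known. Spots flagged as outliers were left out, the log2 processed signal was reduced by each array's 75th percentile over probes that are not controls, and the 11580 probes marked well above background in 3 or more arrays were fitted with limma 3.58.1 in R 4.3.3 (lmFit, eBayes, no block, Benjamini-Hochberg). The fit was tested on simulated data. Ranks and shares use the processed signal of all 14145 circRNA probes. Probes were named by signal (the 5 brightest, and 2 on each side of the limit), by range of ranks (2) and by change (2 in each direction with groups that do not overlap). Members of counts of 5 or fewer were also named. The number of arrays limits the precision.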

Additional observations from a re-analysis of the deposited data

How the results depend on the processing

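The share of circRNA signal kept its direction under all 7 alternatives, 2.33 to 4.63 percentage points, and without 1 array, chosen after seeing the data, 1.0 to 5.32. The 4 members past an adjusted p became 8 with normexp, 2 without scaling, 1 without a filter, 1 with a variance trend, and 0 with quantile normalization (81 at an unadjusted p under 0.05), with a slide block (47) and by the methods' t-test (24). In the main fit, 69 members (34.5%) had an unadjusted p under 0.05 from limma, against 23.0% of the 11380 remaining probes. The slide block only takes out Sham 3, the only array with its own scan identifier. It gave the same counts as leaving out Sham 3, so it is not a separate check and cannot adjust for slide. Leaving out 1 array gave 0 to 55 past an adjusted p. There were 55 without Sham 1 and 0 without any other array (40 to 70 at an unadjusted p under 0.05). For the 55 and the other settings outside the main fit, the share of all tested probes past the adjustment was not counted. Nor was their share at an unadjusted p under 0.05. Deviations of same-numbered AD and Sham arrays correlated at 0.173, 0.189 and 0.0288. The labels give only a number, and whether same-numbered samples were handled together was not tested. With the replicate block there were 0 past an adjusted p and 85 at an unadjusted p under 0.05. At the study's threshold with limma's p, 56 members (28%) were then higher and 4 (2%) lower. Of all tested probes it was 8.99% and 2.88%. The 52 of 200 members higher (26.0%) became 29 with quantile normalization, 31 with the deposited table and 15 by the methods' t-test. With 100 members 26 (26.0%) were higher, and with 400 members 95 (23.75%), so the share changed little. Among the 155 members with both group means above the limit, also chosen after seeing the data, 30 (19.4%) were higher and 2 lower. Without 1 array 28 to 62 members were higher. The 4 lower (2%) became 17 with quantile normalization, 11 with the deposited table, 1 with a variance trend and 1 with a slide block. They became 0 without scaling, 0 by the methods' t-test, and 0 to 8 without 1 array. With 100 members 2 (2%) were lower, and with 400 members 13 (3.25%). The median log2 difference turned to -0.15 with quantile normalization and -0.14 with the deposited table, and that of the members minus the remaining probes, 0.27, to -0.0742 and -0.0782. Without 1 array the median was 0.15 to 0.48. The 87 members in every array's top 200 became 138 with the 300 brightest. The causes were not tested. Normexp used the median spot signal. All 200 members were well above background on all 6 arrays.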
